A study of Mus musculus with 8 samples.

Results

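Heat shock proteins and their DnaJ co-chaperones were followed in mouse hearts labelled as knockouts of CITED4, a transcriptional co-regulator, and in floxed control hearts. The members were all genes whose symbol on the array begins as an Hsp70, small Hsp, Hsp90, Hsp60, Hsp10, Hsp110 or DnaJ name does, read from probe sets that carry 1 gene symbol, with the probe set of highest mean signal taken for each gene. Genes entered by symbol alone, but this set was chosen with earlier results of these data known. The rule gave 66 genes of the 22180 on the array, 25 of them Hsp genes and 41 DnaJ genes. After a filter on low signal, 60 of the 66 were tested. Another 6 genes with such names (Dnaja1, Dnajb8, Dnajc17, Dnajc19, Dnajc19-ps and Hspb2) had only probe sets shared with other genes and were not analysed here, and neither was Hsp90ab1.

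The study compared 4 CITED4 knockout hearts with 4 floxed control hearts, all from male C57Bl6N mice and all harvested 1 week after transverse aortic constriction, a surgical narrowing of the aorta that puts a pressure load on the left ventricle. Both groups had the operation, and no unoperated hearts were among the samples. The labels name neither the Cre driver behind the knockout nor whether the floxed controls carried a Cre. RNA from whole frozen heart was hybridised to Affymetrix arrays, 1 array per sample, and values are log2 signals.

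Chaperones bind unfolded stretches of other proteins and let them fold, move across membranes or be degraded. HSP70 proteins do this in cycles driven by ATP: DnaJ proteins (HSP40) bring the client and start ATP hydrolysis, and HSP110 proteins and other exchange factors release the nucleotide. Mitochondria and the endoplasmic reticulum keep chaperone sets of their own, in the mitochondrion a matrix HSP70 and the HSP60-HSP10 chaperonin, in the reticulum BiP and GRP94. In heart muscle the small heat shock proteins and the cytosolic HSP70 system guard the contractile filaments, and much of the system is induced by heat shock factors when proteins misfold.

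The 8 arrays had medians between 4.29 and 4.33 and correlated with each other at 0.979 to 0.988. The Cited4 signal averaged 5.07 ± 0.19 in knockout hearts and 5.98 ± 0.20 in control hearts (SD, n = 4 each), so the knockout signal was 53.1% of that of control hearts. Knockout heart 2 stood apart in atrial markers: the median of 4 such genes, each centred on its mean over the arrays, was 2.37 there and -0.49 to 0.05 in the other 7 hearts. Ventricular cardiomyocyte markers were all well measured, the lowest averaging 8.09 on the log2 scale. All 6 activated fibroblast markers were higher on average in knockout hearts, with list medians of -0.30 to 1.08 in knockout hearts and -1.08 to 0.46 in control hearts. In whole heart RNA, fewer cells of a type and less RNA per cell cannot be told apart.

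No Hsp or DnaJ gene passed the test across all genes. The array-wide limma test gave the 60 tested members Benjamini-Hochberg adjusted p-values between 0.421 and 0.997. Among all 15086 genes, too, 0 (0%) passed an adjusted p of 0.05. What follows is therefore a description of sizes, with their errors, of differences that did not pass the adjusted test. By direction, 38 of the 60 tested members had lower means in knockout hearts and 22 had higher means, with a median difference of -0.05 on the log2 scale (range -0.44 to 0.43), beside 0.0038 over all tested genes. At an unadjusted p under 0.05, 9 members were lower in knockout hearts (15% of 60, against 5.61% of all tested genes) and 2 were higher (3.33%, against 5.64%), 11 in all (18.3%, against 11.2%). The 9 were Dnajc28, Hsph1, Dnajc27, Hspe1, Hspd1, Dnajc15, Dnaja3, Dnajc21 and Hspa4l, and the 2 were Hspa2 and Dnajc9. The knockout and control values did not overlap for 3 lower members (5.0%, against 2.9% of all tested genes), Dnajc28, Hspe1 and Hspa4l, and for the same 2 higher members (3.33%, against 2.33%), 5 in all (8.33%, against 5.23%).

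The count of 9 fell when certain single hearts were left out. It was 2 without knockout heart 1, 3 without knockout heart 4, 2 without control heart 2, 3 without control heart 3 and 5 without control heart 4. The count over all tested genes in either direction, 1697 with every heart, was lower in these settings too, at 987, 1058, 1056, 1109 and 1156. With knockout hearts 1 and 4 both left out, 1 member was lower, the median over members was 0.0015, and 617 of all tested genes had an unadjusted p under 0.05. These 2 hearts were singled out because earlier results of these data had them far from the controls. A smaller difference without them follows in part from that choice, so values without knockout hearts 1 and 4 are given only to show how much of a difference rests on them. Without knockout heart 2, which stood apart in atrial markers, 8 members were lower and 3 higher, with 2390 of all tested genes. The 2 higher members became 1 without knockout heart 4, control heart 2 or control heart 4.

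**Figure D1:**
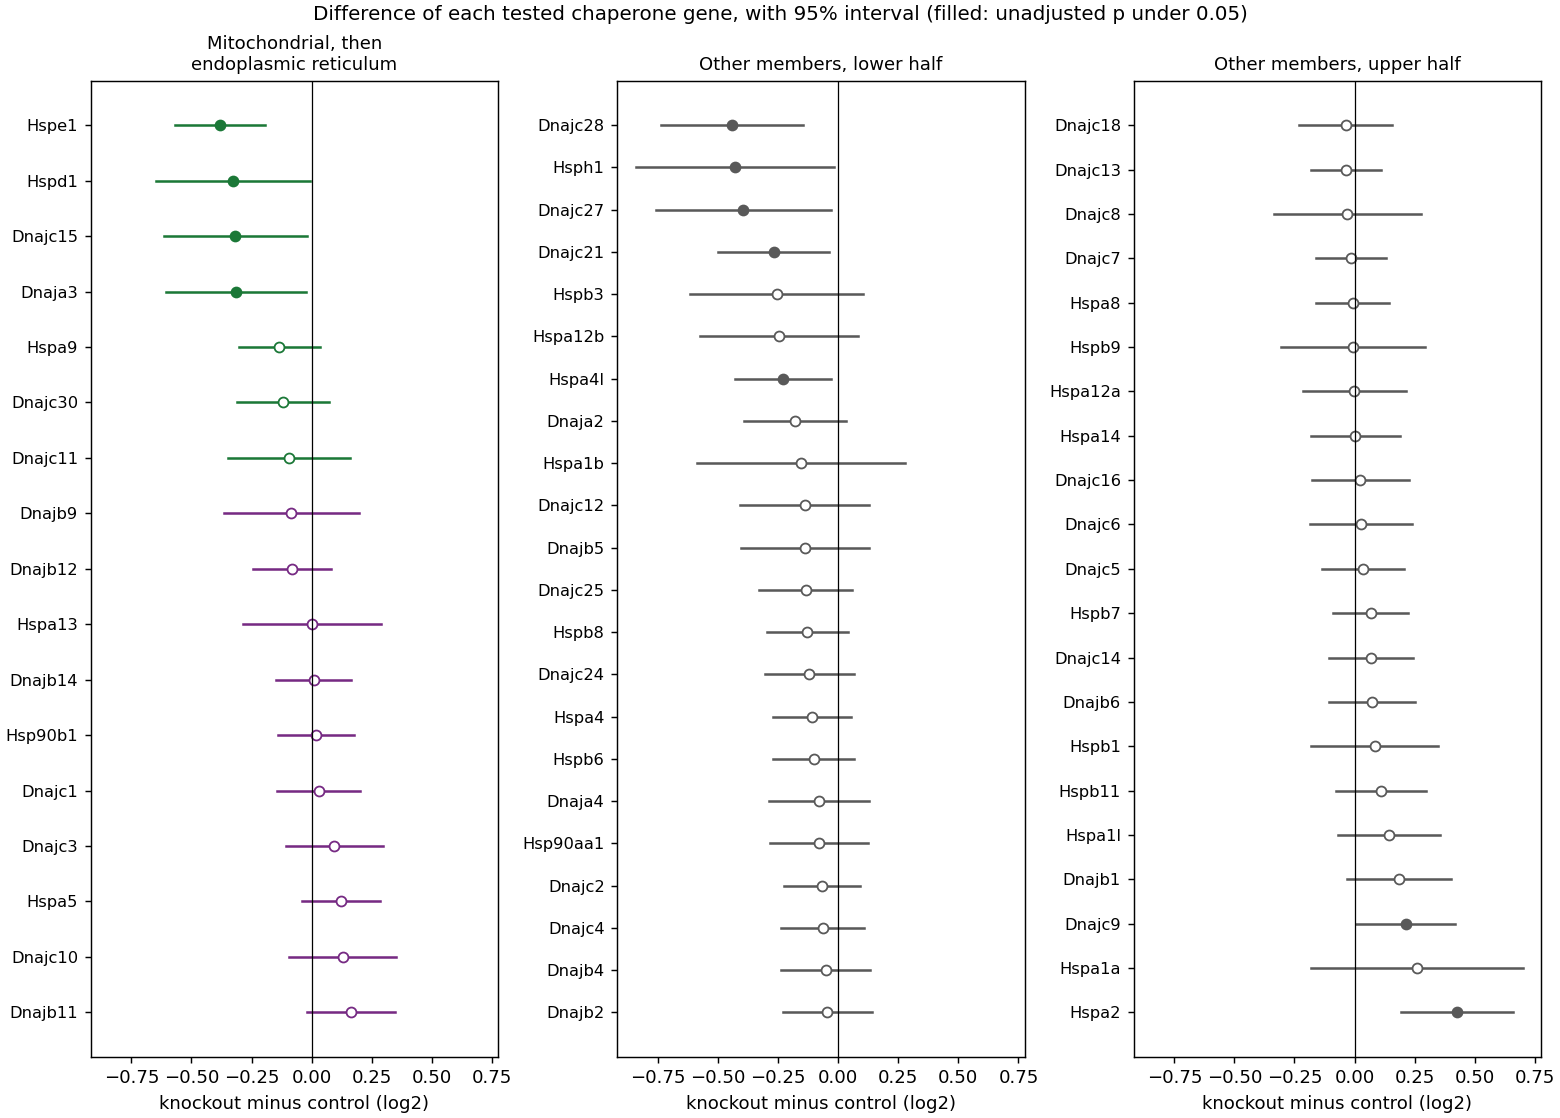
Difference of each tested member in log2 signal, knockout minus control, with its 95% confidence interval from limma. Filled points had an unadjusted p under 0.05, green marks mitochondrial members, purple those of the endoplasmic reticulum and grey the others. The 7 mitochondrial members all lie left of 0, and the reticulum members cluster around it.

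The mitochondrial chaperones had the lowest median of the groups located in a compartment. All 7 tested members of the group, Hspe1, Hspd1, Dnaja3, Dnajc15, Hspa9, Dnajc30 and Dnajc11, had lower means in knockout hearts, with a median difference of -0.32. At an unadjusted limma p under 0.05, 4 of the 7 were lower (57.1%, against 5.61% of all tested genes). Only Hspe1 had no overlap between the groups (14.3%, against 2.9%). The median was -0.14 with the probe sets of each gene averaged, which bears on Dnaja3 alone in this group, and -0.091 without knockout hearts 1 and 4. The 53 other tested members split into 31 lower and 22 higher, with a median of -0.03. With Dnajc4 and Dnajc28 counted as mitochondrial, 9 of 9 had lower means and the median stayed at -0.32.

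Hspe1 encodes HSP10, the lid of the mitochondrial chaperonin, and Hspd1 encodes HSP60, the barrel that the lid closes. In the mouse genome the genes lie head to head on opposite strands of chromosome 1 (RefSeq, GRCm38.p6). Hspd1 has 2 annotated starts, 216 and 95 bases from the start of Hspe1. The nearer one lies downstream of the Hspe1 start, so transcription from it runs back across that start. The farther one lies upstream of the Hspe1 start, and its window shares 285 of 300 bases with the Hspe1 window. The Hspe1 window, from 250 bases before to 50 bases after the annotated start, is shown because it also holds most of the window of that Hspd1 start, and both genes had lower means in knockout hearts. That of Hsph1, the HSP110 gene with the lowest mean difference, and that of the inducible HSP70 gene Hspa1a stand beside it. The strand is plus for Hspe1 and minus for Hsph1 and Hspa1a, each is written 5′ to 3′, and capitals mark matches to GAANNTTC or TTCNNGAA, parts of the heat shock element that heat shock factors bind.
Hspe1, chr1:55087898-55088197: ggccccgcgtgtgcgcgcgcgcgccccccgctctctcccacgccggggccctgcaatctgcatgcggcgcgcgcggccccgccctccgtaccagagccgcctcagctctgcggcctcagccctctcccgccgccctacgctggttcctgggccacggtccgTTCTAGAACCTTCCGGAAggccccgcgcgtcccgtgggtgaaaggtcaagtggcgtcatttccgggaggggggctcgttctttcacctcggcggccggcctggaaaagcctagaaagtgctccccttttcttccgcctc
Hsph1, chr5:149636266-149636565: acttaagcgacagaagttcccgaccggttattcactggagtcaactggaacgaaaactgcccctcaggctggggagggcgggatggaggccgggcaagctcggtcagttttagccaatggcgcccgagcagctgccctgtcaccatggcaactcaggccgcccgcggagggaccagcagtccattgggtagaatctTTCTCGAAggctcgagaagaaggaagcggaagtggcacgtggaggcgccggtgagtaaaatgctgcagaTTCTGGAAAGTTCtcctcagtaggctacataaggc
Hspa1a, chr17:34972107-34972406: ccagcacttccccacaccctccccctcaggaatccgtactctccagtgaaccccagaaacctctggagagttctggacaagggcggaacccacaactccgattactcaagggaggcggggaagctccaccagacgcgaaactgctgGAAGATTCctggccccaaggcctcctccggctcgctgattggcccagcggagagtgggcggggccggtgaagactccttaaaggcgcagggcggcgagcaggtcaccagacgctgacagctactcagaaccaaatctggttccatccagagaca

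The Hspe1 window holds 3 overlapping matches in 18 bases that begin 89 bases before the start, and the same bases lie upstream of the farther Hspd1 start on the other strand. The window of the other Hspd1 start shares 4 bases with that of Hspe1 and holds no match. In Hsph1, 1 match begins 54 bases before the start and 2 overlapping ones lie after it, while Hspa1a has 1 match, which begins 104 bases before the start. RefSeq windows were at hand for 54 of the 66 members, and 15 of these (27.8%) held either motif, against 17.0% of the 27025 genes with a window. Each motif reads the same on both strands. A longer motif, in which GAANNTTC and TTCNNGAA overlap by the 3 letters TTC or GAA in either order, was found in 4 of the 54 (7.41%), Hspe1, Hspd1, Hsph1 and Dnajb6, against 0.662% of all genes. Among the 9 lower members 4 had a motif (Hspd1, Hspe1, Hsph1 and Dnajc27), and neither of the 2 higher members did, too few to compare. Hspd1 and Hspe1 share the same site but count as separate genes here and among the 4 with the longer motif. Dnajb6, which encodes a co-chaperone of muscle Z-discs in humans, carries the longer motif and differed by 0.07 ± 0.08 (SE) on the log2 scale.

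Hspe1 read 7.01, 7.20, 7.02 and 6.94 in knockout hearts 1 to 4, against 7.33, 7.55, 7.40 and 7.40 in control hearts 1 to 4. All knockout values lay below all control values. The difference was -0.38 ± 0.08 on the log2 scale (SE, 95% interval -0.57 to -0.19), a signal 76.8% of that of control hearts, with an unadjusted limma p of 0.00107, an adjusted p of 0.421 and a two-sided exact permutation p of 0.0286, the smallest that 4 against 4 allows. Leaving out any 1 heart gave -0.43 to -0.34, and leaving out both knockout hearts 1 and 4 gave -0.31.

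Hspd1 read 8.61, 8.99, 9.22 and 8.82 in knockout hearts, against 8.98, 9.46, 9.36 and 9.15 in control hearts. The groups overlapped: knockout heart 3 lay above control hearts 1 and 4, and knockout heart 2 was level with control heart 1. The difference was -0.33 ± 0.14 (95% interval -0.65 to -0.01, limma adjusted p = 0.444, exact permutation p = 0.143), and it was -0.13 without knockout hearts 1 and 4.

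Hspa9 is mortalin, the matrix HSP70 that pulls imported proteins through the inner membrane. Its signal was 11.16, 11.18, 11.29 and 11.17 in knockout hearts and 11.21, 11.43, 11.37 and 11.33 in control hearts. Only knockout heart 3 exceeded any control heart, control heart 1. The difference of -0.14 ± 0.08 (95% interval -0.30 to 0.03) had a limma adjusted p of 0.512 and an exact permutation p of 0.0571.

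Dnaja3, also called Tid1, is the DnaJ partner of mortalin in the matrix, and mice that lose it in heart muscle develop dilated cardiomyopathy. Signals were 7.61, 8.06, 8.12 and 7.66 in knockout hearts, against 7.98, 8.26, 8.29 and 8.18 in control hearts. Knockout hearts 1 and 4 lay below all controls, and knockout hearts 2 and 3 lay within the range of the control hearts. The difference was -0.32 ± 0.13 (limma adjusted p = 0.431, exact permutation p = 0.114) and -0.09 without knockout hearts 1 and 4. Dnaja3 has 2 further probe sets of low signal, with means of 4.14 and 3.82, which differed by 0.09 and -0.19, so its probe sets disagree in direction.

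Dnajc15, or MCJ, sits in the inner membrane and restrains complex I of the respiratory chain. It read 7.25, 7.79, 7.84 and 7.37 in knockout hearts and 7.77, 7.97, 7.88 and 7.90 in control hearts. As for Dnaja3, knockout hearts 1 and 4 were the low ones. The difference was -0.32 ± 0.13 (limma adjusted p = 0.436, exact permutation p = 0.0857) and -0.07 without those hearts. Dnajc30, which associates with the ATP synthase in mouse neurons, differed by -0.12 ± 0.09, and Dnajc11, an outer membrane protein tied to cristae structure, by -0.09 ± 0.11. Without knockout hearts 1 and 4, Dnajc11 differed by 0.04, the exception to the common direction.

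Dnajc28, a little-studied DnaJ gene, had the lowest difference of all tested members. It read 5.38, 5.98, 5.89 and 5.48 in knockout hearts, against 6.07, 6.15, 6.10 and 6.19 in control hearts, with no overlap. The control hearts spanned a narrow range, and knockout hearts 1 and 4 lay well below knockout hearts 2 and 3. The difference was -0.44 ± 0.13 (95% interval -0.74 to -0.15), 73.6% of the signal of control hearts, with a limma adjusted p of 0.421 and an exact permutation p of 0.0286. It was -0.19 without knockout hearts 1 and 4.

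**Figure D2:**
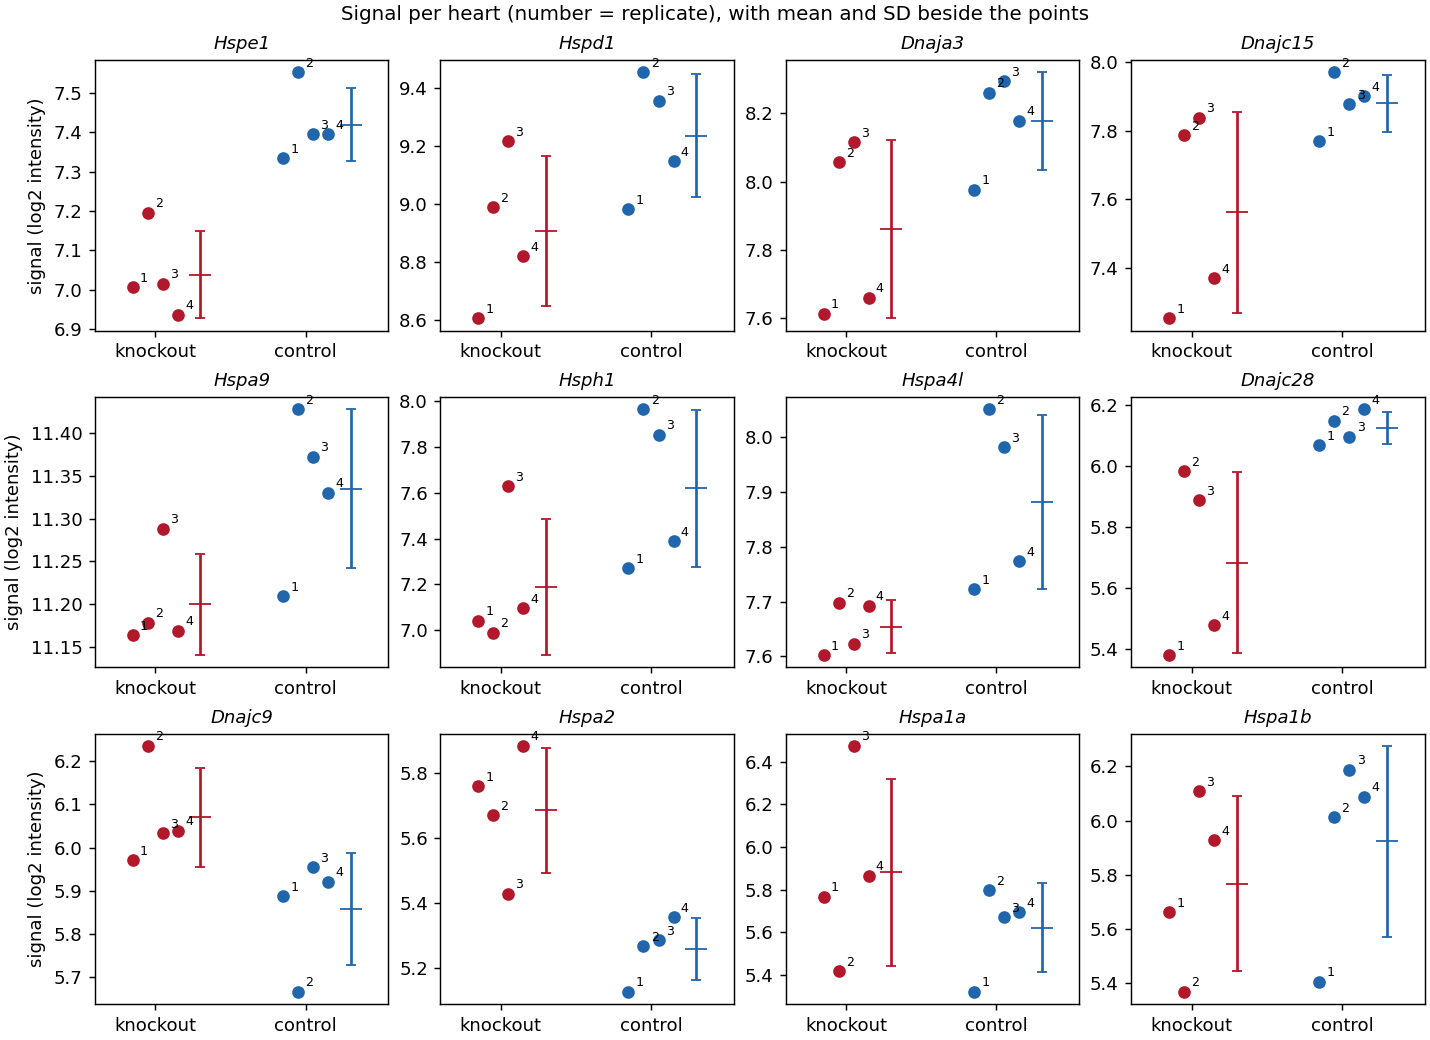
Log2 signal of 12 chaperone genes in each heart, knockout hearts to the left of control hearts, with group means and standard deviations. Hspe1, Dnajc28 and Hspa4l show no overlap with lower knockout values, Hspa2 and Dnajc9 none with higher knockout values, and Hspa1a and Hspa1b overlap.

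The respiratory chain genes and the cell type markers were set beside the mitochondrial chaperones, heart by heart. No correlation between these lists was tested. Centred on each gene's mean over the 8 arrays, the median of the 7 mitochondrial chaperones was -0.22, -0.03, 0.10 and -0.27 in knockout hearts 1 to 4, against -0.04, 0.24, 0.17 and 0.08 in control hearts 1 to 4. For 12 respiratory chain genes, all of them with lower means in knockout hearts (median difference -0.20), it was -0.23, 0.04, 0.01 and -0.24 in knockout hearts and 0.01, 0.11, 0.14 and 0.13 in control hearts. At an unadjusted limma p under 0.05, 3 of the 12 were lower, against 5.61% of all tested genes. Knockout hearts 1 and 4 were the lowest in both lists. Of the control hearts, control heart 1 was the lowest in both.

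Knockout hearts 1 and 4 also stood out in the cell type markers. The median of 8 ventricular cardiomyocyte markers, 7 of them with lower means in knockout hearts, was -0.21 and -0.13 in knockout hearts 1 and 4, 0.06 and -0.02 in knockout hearts 2 and 3, and 0.02 to 0.09 in control hearts. That of the 6 activated fibroblast markers was 1.01 and 1.08 in knockout hearts 1 and 4. It was 0.26 and -0.30 in knockout hearts 2 and 3, 0.46 in control heart 1 and -1.08 to -0.62 in the other control hearts. None of these markers was at background, the lowest average being 6.23. Their part in the differences of the mitochondrial chaperones was not tested. Without knockout hearts 1 and 4 the mitochondrial chaperone median was -0.09.

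**Figure D3:**
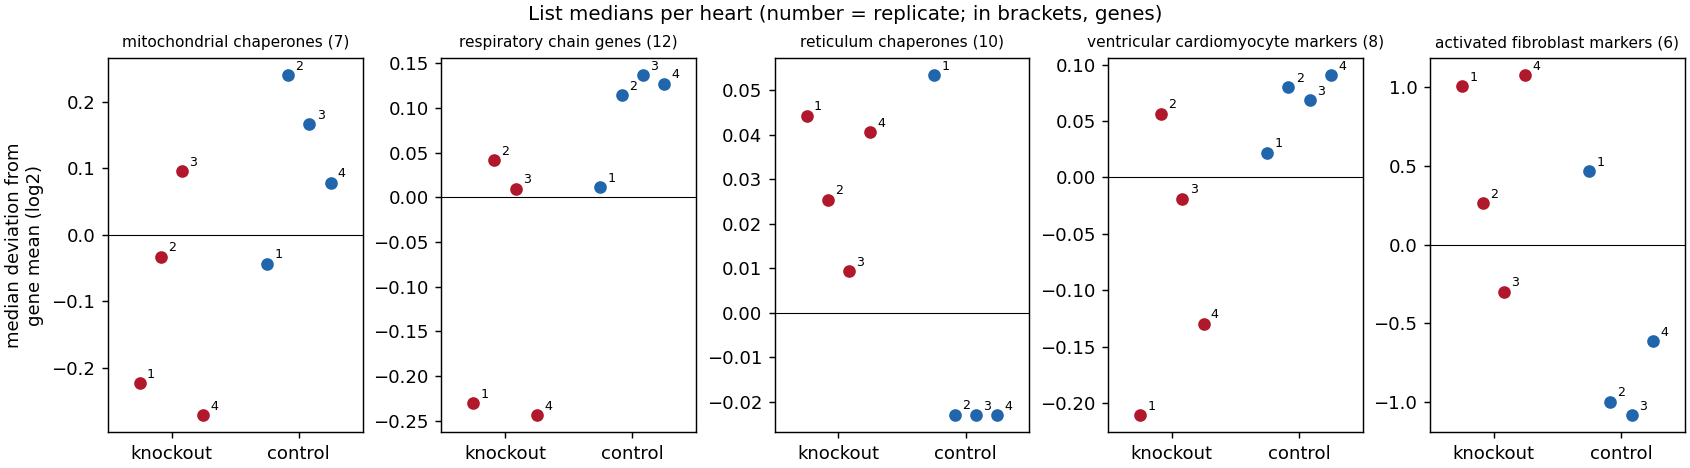
Median log2 signal of 5 gene lists in each heart, each gene centred on its mean over the 8 arrays, knockout hearts left of control hearts. Knockout hearts 1 and 4 are lowest for mitochondrial chaperones, at -0.22 and -0.27, and for respiratory chain genes, at -0.23 and -0.24, and highest for activated fibroblast markers, at 1.01 and 1.08.

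All 3 HSP110 genes, the exchange factors that recharge cytosolic HSP70, had lower means in knockout hearts, with a median difference of -0.23. Hsph1 is stress-inducible, and Hspa4l is listed as heat-inducible too. Hsph1 read 7.04, 6.99, 7.63 and 7.10 in knockout hearts, against 7.27, 7.96, 7.85 and 7.39 in control hearts. Knockout hearts 1, 2 and 4 lay below all controls and knockout heart 3 above control hearts 1 and 4. The difference was -0.43 ± 0.19 (95% interval -0.84 to -0.02, 74.2% of the signal of control hearts, limma adjusted p = 0.441, exact permutation p = 0.143), and -0.31 without knockout hearts 1 and 4.

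Hspa4l, abundant in mouse testis and needed there for sperm development, read 7.60, 7.70, 7.62 and 7.69 in knockout hearts, against 7.72, 8.05, 7.98 and 7.77 in control hearts. The groups did not overlap, although the gap between them was 0.025. The difference was -0.23 ± 0.09 (limma adjusted p = 0.421, exact permutation p = 0.0286) and -0.22 without knockout hearts 1 and 4. Hspa4, the constitutive HSP110 gene, differed by -0.11 ± 0.07 (adjusted p = 0.584).

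The HSP70 genes showed no common direction, with 6 of 11 higher and 5 lower in knockout hearts and a median difference of 0.0018. Hspa2, best known for its role in meiosis of mouse spermatocytes, had the highest difference of all tested members. Its signal was 5.76, 5.67, 5.43 and 5.89 in knockout hearts, against 5.13, 5.27, 5.29 and 5.36 in control hearts, without overlap. The difference was 0.43 ± 0.10 (95% interval 0.20 to 0.66), so the knockout signal was 134.5% of that of control hearts, with an unadjusted limma p of 0.00212, an adjusted p of 0.421 and an exact permutation p of 0.0286. Leaving out any 1 heart gave 0.36 to 0.51, and leaving out knockout hearts 1 and 4 gave 0.29.

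Hspa1a and Hspa1b, the stress-inducible HSP70 genes, are near-identical copies whose probes may not tell them apart, so their separate values are uncertain. Hspa1a read 5.77, 5.42, 6.47 and 5.86 in knockout hearts, against 5.32, 5.80, 5.67 and 5.69 in control hearts, and differed by 0.26 ± 0.20 (95% interval -0.18 to 0.70, limma adjusted p = 0.624). Hspa1b read 5.66, 5.37, 6.11 and 5.93 in knockout hearts, against 5.41, 6.01, 6.19 and 6.09 in control hearts, and differed by -0.16 ± 0.19 (95% interval -0.59 to 0.28, adjusted p = 0.784). Both groups overlapped for both genes, and knockout heart 3 had the highest and knockout heart 2 the lowest knockout value of each.

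Hspa8, the constitutive HSC70, was 11.54, 11.54, 11.64 and 11.51 in knockout hearts and 11.57, 11.59, 11.52 and 11.58 in control hearts, a difference of -0.01 ± 0.07 (95% interval -0.16 to 0.14). Its 3 other probe sets, with means of 7.66, 8.86 and 8.84, differed by 0.22, 0.30 and 0.34, so the probe sets of Hspa8 disagree. Hspa1l differed by 0.14 ± 0.10, and by 0.02 without knockout hearts 1 and 4. Hspa12b, a distant HSP70 relative of endothelial cells, differed by -0.25 ± 0.15, by -0.35 to -0.11 with 1 heart left out and by 0.0042 without that pair. Neither passed the test. Hsp90aa1, the inducible cytosolic HSP90, read 7.79, 7.81, 8.01 and 7.90 in knockout hearts and 7.95, 8.10, 8.02 and 7.77 in control hearts, which overlap, with a difference of -0.08 ± 0.09 (limma adjusted p = 0.760).

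Across compartments, 11 tested members were listed as heat-inducible targets of the heat shock factor HSF1. They were Hspa1a, Hspa1b, Hspa8, Hsph1, Hspa4l, Hsp90aa1, Hspb1, Hspd1, Hspe1, Dnajb1 and Dnajb4. Hspa8, the constitutive HSC70, counts as lower at -0.0077, though its other probe sets were higher. Of these, 8 had lower means in knockout hearts and 3 higher, with a median of -0.08. The 4 with an unadjusted limma p under 0.05 (36.4%, against 5.61% of all tested genes lower) were Hspd1, Hspe1, Hsph1 and Hspa4l. The 9 outside the mitochondrion split 6 lower and 3 higher, with a median of -0.05. A promoter window was at hand for 9 of the 11 genes, and 7 of these held a motif, in a list made of known heat shock factor targets.

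Hspd1 was set against Hspa9, Hsph1 and Hspe1 across the 8 hearts. With Hspa9 its Pearson correlation was 0.92 (exact permutation p = 0.00104, Benjamini-Hochberg adjusted over 4 relations 0.00382) and its Spearman correlation 0.95 (exact permutation p = 0.00114). With Hsph1 they were 0.91 (exact permutation p = 0.00191, adjusted 0.00382) and 0.86 (exact permutation p = 0.0107). Leaving out knockout heart 1 and control heart 2, the hearts farthest from the Hspd1 median, gave 0.93 and 0.91, and within groups the Pearson correlations were 0.87 and 0.85.

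Hspe1, whose promoter window overlaps that of Hspd1, had lower values of both coefficients. The Pearson correlation was 0.73 (exact permutation p = 0.0417, adjusted 0.0556) and the Spearman correlation 0.76 (exact permutation p = 0.0368), with a Pearson correlation of 0.51 without those hearts and 0.51 within groups, so the relation rests in part on them. The difference between the correlations was not tested. In knockout heart 3, Hspd1 was at 9.22, the highest of the knockout hearts, while Hspe1 was at 7.02, below every control heart. Hspa1a and Hspa1b correlated at 0.65 (exact permutation p = 0.0744) with a Spearman correlation of 0.45 (exact permutation p = 0.268). Their Pearson correlation was 0.85 within groups, and 0.59 without knockout heart 3 and control heart 1, the hearts farthest from the Hspa1a median. These 4 relations were chosen after the values had been seen, and the genes share the same arrays.

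**Figure D4:**
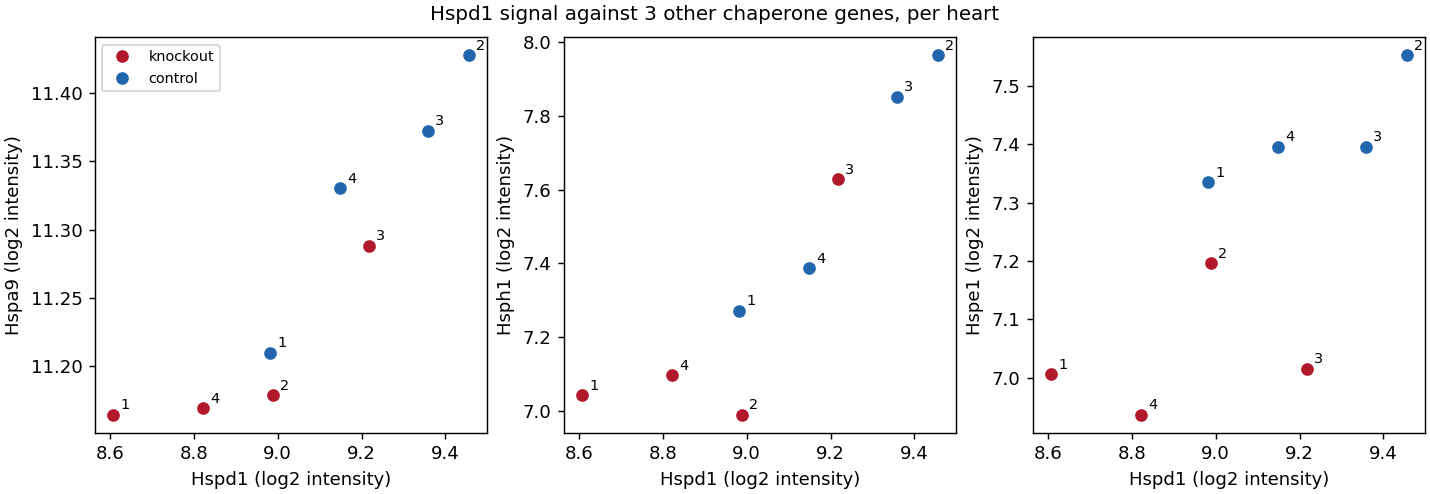
Log2 signal of Hspa9, Hsph1 and Hspe1 against that of Hspd1 in the 8 hearts, 1 point per heart, knockout and control in separate colours. Hspa9 and Hsph1 lie along 1 line with Hspd1 (Pearson 0.92 and 0.91), while for Hspe1 the knockout hearts lie below the control hearts at like Hspd1 signal.

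The small heat shock proteins, which hold unfolding filament proteins until HSP70 takes them up, differed by -0.26 to 0.11. Of 7 tested, 4 had lower and 3 higher means in knockout hearts, the median was -0.01, and none had an unadjusted p under 0.05. Hspb7, a cardiac filament protein, read 12.44, 12.31, 12.35 and 12.46 in knockout hearts, against 12.35, 12.35, 12.32 and 12.27 in control hearts, which overlap, and differed by 0.07 ± 0.07. Hspb8, which works with BAG3 in selective autophagy, averaged 9.89 ± 0.09 in knockout hearts and 10.02 ± 0.05 in control hearts (SD, n = 4 each), and differed by -0.13 ± 0.07 (limma adjusted p = 0.526). Only knockout heart 3 reached the range of the control hearts for Hspb8.

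Hspb6, also known as HSP20, differed by -0.10 ± 0.08 (limma adjusted p = 0.613). For Hspb1, the mouse HSP25 that binds actin, the difference was 0.08 ± 0.12, and its other probe set differed by 0.16. Hspb3, a muscle small heat shock protein, differed by -0.26 ± 0.16 (adjusted p = 0.550), and by 0.01 without knockout hearts 1 and 4. Hspb9, a testis form, differed by -0.01 ± 0.14, and Hspb11, an intraflagellar transport protein despite its name, by 0.11 ± 0.08.

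Of the 10 members listed for the endoplasmic reticulum, 8 had higher and 2 lower means in knockout hearts, with a median difference of 0.02 and none with an unadjusted p under 0.05. Hspa5, the reticulum HSP70 BiP, read 8.13, 8.18, 8.29 and 8.27 in knockout hearts, against 8.01, 8.13, 8.10 and 8.14 in control hearts. Its difference was 0.12 ± 0.07 (95% interval -0.04 to 0.28, limma adjusted p = 0.535), with overlapping groups. Hsp90b1, the reticulum HSP90 GRP94, averaged 10.97 ± 0.08 in knockout hearts and 10.96 ± 0.03 in control hearts (SD, n = 4 each), a difference of 0.02 ± 0.07.

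The DnaJ partners of BiP did not all lie on the same side. Dnajb11 (ERdj3), which is secreted with its clients under stress, differed by 0.16 ± 0.08 (limma adjusted p = 0.480, and 0.09 without knockout hearts 1 and 4), Dnajc10 (ERdj5), a disulfide reductase, by 0.13 ± 0.10, and Dnajc3 (P58IPK), an inhibitor of the kinase PERK, by 0.10 ± 0.09 (adjusted p = 0.706). Dnajb9 (ERdj4), a target of XBP1, read 7.71, 8.40, 8.13 and 8.04 in knockout hearts, against 8.12, 8.17, 8.17 and 8.15 in control hearts, so knockout hearts 1 and 2 lay on opposite sides of the controls. Its difference was -0.08 ± 0.13, and it was 0.11 without knockout hearts 1 and 4. Dnajb14, a reticulum membrane DnaJ protein, differed by 0.01, and its other probe set, of lower signal, by -0.12.

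Outside the mitochondrial and reticulum lists used here, 24 DnaJ genes were tested, of which 17 had lower and 7 higher means in knockout hearts, with a median of -0.05. The 24 include Dnajc4 and Dnajc28, and their location in the cell was not checked one by one. Dnajc9, in human cells a histone chaperone that brings HSP70 to histones H3 and H4, read 5.97, 6.24, 6.03 and 6.04 in knockout hearts, against 5.89, 5.67, 5.95 and 5.92 in control hearts. The groups did not overlap, with a gap of 0.0169, and the difference was 0.21 ± 0.09 (95% interval 0.01 to 0.42, limma adjusted p = 0.441, exact permutation p = 0.0286). It was 0.28 without knockout hearts 1 and 4.

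Dnajc27, a Rab-like GTPase fused to a J domain, read 5.90, 6.41, 6.65 and 6.24 in knockout hearts, against 6.40, 6.92, 6.85 and 6.61 in control hearts. Its difference was -0.39 ± 0.16 (limma adjusted p = 0.431, exact permutation p = 0.143) and -0.17 without knockout hearts 1 and 4. Dnajc21, a factor of large ribosomal subunit maturation in human cells, read 7.25, 7.69, 7.46 and 7.27 in knockout hearts, against 7.65, 7.73, 7.63 and 7.74 in control hearts. Its difference was -0.27 ± 0.10 (adjusted p = 0.421, exact permutation p = 0.0857) and -0.11 without those hearts. For Dnajc21, knockout heart 2 reached the range of the control hearts, and for Dnajc27 knockout hearts 2 and 3 did.

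Dnajb1, the main inducible HSP40 of the cytosol, read 5.89, 5.75, 5.48 and 5.83 in knockout hearts, against 5.51, 5.62, 5.49 and 5.60 in control hearts. Its difference of 0.18 ± 0.10 (95% interval -0.03 to 0.40, limma adjusted p = 0.494) ran opposite to those of Hsph1 and Hspd1, and was 0.06 without knockout hearts 1 and 4. Dnajb5, which takes part in the redox control of HDAC4 in cardiac muscle, differed by -0.14 ± 0.12 (adjusted p = 0.670), by -0.22 to -0.05 with 1 heart left out and by -0.0012 without knockout hearts 1 and 4. The difference of Dnaja2, a constitutive cytosolic DnaJ, was -0.18 ± 0.10. The 6 members below the signal filter, Dnajb3, Dnajb7, Dnajb13, Dnajc5b, Dnajc5g and Dnajc22, were not tested and differed by -0.08 to 0.08.

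Chaperone regulators and cofactors, which are not members by name, were read from the same arrays. None passed an adjusted p of 0.05. Hsf2, a heat shock factor, read 6.40, 6.25, 6.20 and 6.07 in knockout hearts, against 6.54, 6.60, 6.43 and 6.31 in control hearts, a difference of -0.24 ± 0.10 (limma adjusted p = 0.421) that was -0.25 without knockout hearts 1 and 4. Hsf4 differed by -0.03, and Hsf1 was not analysed here. Among 20 HSP70 and HSP90 cofactors, 13 had lower and 7 higher means, with a median of -0.04. At an unadjusted limma p under 0.05, 5 of the 20 were lower and 1 was higher, against 5.61% and 5.64% of all tested genes.

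The myosin chaperones Unc45a and Unc45b differed in opposite directions. Unc45a, the form found in most cell types, read 6.07, 5.98, 6.09 and 5.76 in knockout hearts, against 5.69, 5.68, 5.57 and 5.58 in control hearts. The groups did not overlap, and the difference was 0.34 ± 0.09 (95% interval 0.15 to 0.54, limma adjusted p = 0.421, exact permutation p = 0.0286) and 0.40 without knockout hearts 1 and 4. Unc45b, the striated muscle form, read 7.46, 7.53, 7.59 and 7.42 in knockout hearts, against 7.50, 7.99, 7.83 and 7.71 in control hearts. It differed by -0.26 ± 0.10 and by -0.20 without those hearts. Sugt1, an HSP90 cofactor, also had no overlap, with 7.58 to 7.61 in knockout hearts and 7.51 to 7.57 in control hearts. Its difference, though, was 0.06 ± 0.06 (limma adjusted p = 0.745). Of all tested genes, 2.33% were higher without overlap.

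The other 4 lower cofactors serve HSP90. The immunophilin gene Fkbp4 differed by -0.50 ± 0.21, Cdc37l1, a relative of the kinase co-chaperone CDC37, by -0.48 ± 0.15, the zinc-binding Chordc1 by -0.30 ± 0.12, and Ahsa1, which stimulates the ATPase of HSP90, by -0.22 ± 0.09. Without knockout hearts 1 and 4 they differed by -0.10, -0.21, -0.12 and -0.11. Other HSP90 cofactors of the list lay on both sides. Stip1 and Fkbp5 differed by 0.03 and 0.09, and Ppid, Cdc37 and Ahsa2 by -0.04, -0.12 and -0.17. Bag3, the partner of Hspb8, differed by -0.03 ± 0.08, Cryab, the cardiac alpha crystallin, by -0.03, and the 8 subunits of the cytosolic TRiC chaperonin split 4 lower and 4 higher with a median of 0.0013.

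Of 10 mitochondrial partners, 8 had lower and 2 higher means, with a median of -0.07. Both subunits of the matrix protease ClpXP, which degrades misfolded matrix proteins, had lower values in knockout hearts without overlap. Of all tested genes, 2.9% were lower without overlap. These 2 were also the partners lower at an unadjusted limma p under 0.05, 2 of the 10, against 5.61% of all tested genes. Clpp, the protease subunit, read 6.96, 7.12, 7.24 and 7.04 in knockout hearts, against 7.28, 7.49, 7.43 and 7.34 in control hearts, a difference of -0.29 ± 0.09 (limma adjusted p = 0.421, exact permutation p = 0.0286). Clpx, the unfoldase, read 7.55, 7.82, 7.79 and 7.80 in knockout hearts, against 7.90, 7.92, 7.95 and 8.13 in control hearts, a difference of -0.23 ± 0.09. Without knockout hearts 1 and 4 the differences were -0.20 and -0.17.

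Of 11 reticulum partners, 9 had higher and 2 lower means, with a median of 0.11. At an unadjusted limma p under 0.05, 2 were higher and 1 was lower, against 5.64% and 5.61% of all tested genes. Manf, a secreted protein that binds BiP, differed by 0.27 ± 0.10 (0.12 without knockout hearts 1 and 4), and Sdf2l1, a BiP cofactor, by 0.20 ± 0.09. Atf6, a membrane-bound transcription factor of the reticulum stress response, read 9.10, 9.40, 9.36 and 9.31 in knockout hearts, against 9.41, 9.58, 9.41 and 9.59 in control hearts. It differed by -0.21 ± 0.09 (limma adjusted p = 0.438), and its groups did not overlap. Of all tested genes, 2.9% were lower without overlap.

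**Figure D5:**
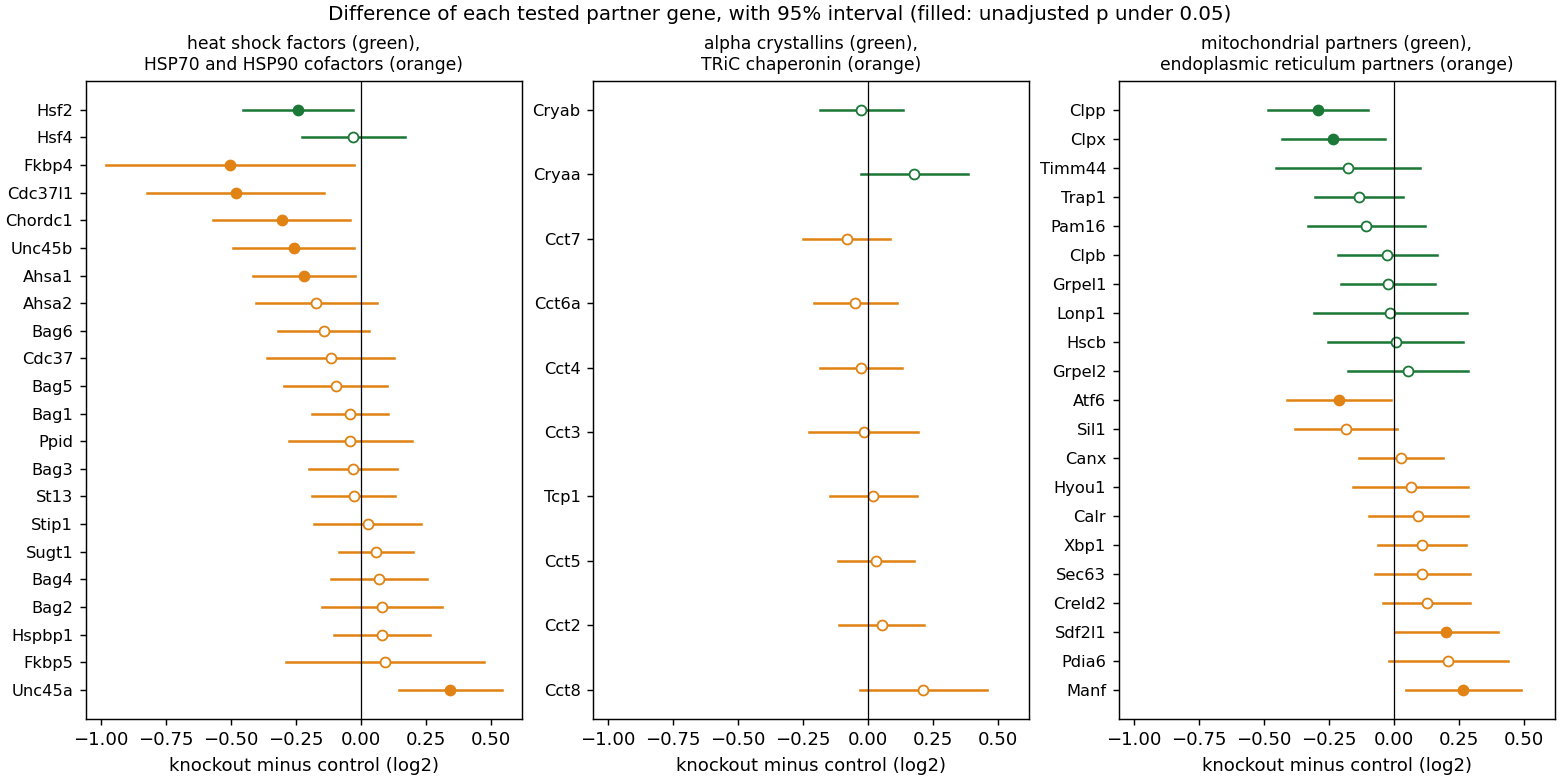
Difference in log2 signal, knockout minus control, of the chaperone regulators and cofactors by list, with 95% confidence intervals from limma. Filled points had an unadjusted p under 0.05. Unc45a stands on the higher side at 0.34 and Fkbp4 and Cdc37l1 on the lower side at -0.50 and -0.48.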

How the data were processed

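The authors deposited log2 signals for 41345 probe sets on 8 Affymetrix arrays, and the submitters' processing notes name RMA and limma without versions. For the array's genome build and annotation version, the sources used here give nothing. The deposited values were used as they stand. Probe sets were named from the platform annotation: 23521 carried 1 symbol, 1814 several and 16010 none, and 23328 of those with 1 symbol matched RefSeq by Entrez ID. The probe set of highest mean stood for each of 22180 genes, and 15086 genes with a mean above the 40th percentile (3.80 on the log2 scale) were tested.

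Groups came from the labels. Knockout and control were compared with lmFit and eBayes of limma 3.58.1 in R 4.3.3, with no covariate and Benjamini-Hochberg adjustment over the 15086 genes. Single values were also tested by two-sided exact permutation over the 70 assignments of hearts to groups. The script was tested on simulated data. The labels do not say that replicates of a group come from separate animals. If they do not, the p-values reflect only differences among these samples, which may be technical, and the number of arrays limits the precision.

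The members, the lists of compartments, partners and markers, and the tests were chosen with earlier results of these data known, so they are not independent support. The genes named are a panel of main chaperones, members with an unadjusted p under 0.05 or without overlap, partners with an unadjusted p under 0.05, the 3 members with the largest difference in each direction and members whose probe sets disagree. Further members and further partners, Sugt1 among them, were named after their values had been seen. Promoter windows are from RefSeq GRCm38.p6. Alternatives changed the filter, the normalization, the choice of probe set, the variance model, the array weights and the replicate block, and left out hearts.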

Additional observations from a re-analysis of the deposited data

Results flagged for a closer look

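Among 39 named genes, 78 groups of 4 hearts were checked for a value far from the other 3, and 3 had one. Chance gives about 1 in 20 groups. All 3 were in knockout hearts. Hsph1, an inducible HSP110 gene, was at 7.63 in knockout heart 3, with the other knockout hearts at 6.99 to 7.10. Hspa9, the mitochondrial HSP70 gene, was at 11.29 in the same heart, with the others at 11.16 to 11.18. Clpx, the unfoldase of the matrix protease, was at 7.55 in knockout heart 1, with the others at 7.79 to 7.82.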

How the results depend on the processing

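No member passed an adjusted limma p of 0.05 under any of the 18 alternatives, and the lowest adjusted p of any member was 0.146, for Hspe1. The 11 members with an unadjusted p under 0.05 kept their direction throughout, while 21 of the other 49 changed sign under at least 1 alternative. Hspe1 and Hspa2 stayed under an unadjusted p of 0.05 in all 18. Leaving out 1 heart at a time, the lower members at that p numbered 2 to 10 and the higher ones 1 to 3, while all tested genes at that p numbered 987 to 2390, beside 1697 with every heart. Without empirical Bayes moderation 5 were lower, of 1327 genes in all, and without knockout hearts 1 and 4, picked for lying far from the controls, 1 was, of 617. Lower members without overlap numbered 3 to 9 and higher ones 2 to 4 when 1 heart was left out, since fewer hearts overlap less often. The median over all members was -0.08 to -0.04 with 1 heart left out and 0.0015 without knockout hearts 1 and 4. The mitochondrial median was -0.37 to -0.22, -0.091 in that setting, and -0.14 with the mean of each gene's probe sets. The median of the other members was -0.05 to -0.02 and 0.0075. Replicate numbers recur in both groups, and the deviations of the hearts do not settle whether these numbers mark pairs. The correlations of same-numbered hearts were 0.36, 0.0087, 0.28 and -0.025. Hearts 1 and 3 of each group correlated best with their own number, and hearts 2 and 4 did not. With the replicate number as a block, 1 member was higher and 10 were lower at an unadjusted p under 0.05, and 2177 genes in all. Signal over background limits the low members.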
